A study of Mus musculus with 40 samples.

Results

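The 10 tubulin genes described here are Tuba1a, Tuba1b, Tuba1c and Tuba4a of the alpha family and Tubb2a, Tubb2b, Tubb3, Tubb4b, Tubb5 and Tubb6 of the beta family. They were selected on the measured rise of Tubb2a in bulk kidney RNA 24 h after nephrectomy. All 10 are among the 28467 genes of the bulk table and the 32285 genes of the nucleus table. The remaining right kidney was studied in male C57BL/6 mice of 8 to 12 weeks, with no altered allele, after removal of the left kidney (unilateral nephrectomy, UNx) or a sham operation in which no kidney was taken. All mice, shams included, had isoflurane anaesthesia, saline and buprenorphine. Bulk RNA-seq of poly-A RNA from a kidney cross-section covered 6 sham and 6 UNx mice at each of 24, 48 and 72 h, and single-nucleus RNA-seq covered 2 sham and 2 UNx other mice at 24 h. The section holds all cell types of the kidney, so in bulk a change in the number of cells of a type cannot be told apart from a change in RNA per cell.

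Microtubules are hollow polymers of alpha- and beta-tubulin dimers that serve as tracks for transport, form the core of the primary cilium and build the mitotic spindle. Mammals carry several alpha (Tuba) and beta (Tubb) genes whose proteins are closely alike and mix in the same polymer. Cells are known to hold tubulin mRNA in check by autoregulation: when free dimers are plentiful, the start of a newly made tubulin chain is bound by TTC5 and its mRNA is degraded. In kidney tubules, microtubules run along the height of the cell and carry proteins to the apical and basal membranes.

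The alpha genes lie mostly side by side. On GRCm38, Tuba1b (ENSMUSG00000023004, chr15:98931425-98934565, minus strand), Tuba1a (ENSMUSG00000072235, chr15:98949837-98953703, minus strand) and Tuba1c (ENSMUSG00000043091, chr15:99029891-99038110, plus strand) are neighbours, and Tuba4a (ENSMUSG00000026202) stands apart at chr1:75214228-75219865 on the minus strand. Tubb2a (ENSMUSG00000058672, chr13:34074274-34078007, minus strand) and Tubb2b (ENSMUSG00000045136, chr13:34126748-34130466, minus strand) are also neighbours. Tubb4b (ENSMUSG00000036752) lies at chr2:25222160-25224702 on the minus strand and Tubb5 (ENSMUSG00000001525) at chr17:35833921-35838306 on the minus strand. The coding sequences of Tuba1a and Tuba1b were 98.3% identical, those of Tuba1b and Tuba1c 98.4%, and those of Tubb2a and Tubb2b 96.5%, whereas Tubb2a and Tubb5 were 84.7% identical. Of all 31-base words in the transcript of Tuba1a, 77.0% also occurred in other genes, as did 75.4% for Tuba1b, 63.9% for Tuba1c, 56.4% for Tubb2a and 45.9% for Tubb2b. For Tubb4b it was 64.6%, mostly shared with the pseudogene Tubb4b-ps1. Salmon splits reads that fit several genes, so the separate counts of these 6 genes are uncertain, while Tuba4a (3.77%), Tubb3 (3.26%), Tubb5 (4.43%) and Tubb6 (3.94%) share few words.

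The start of the coding sequence is shown because autoregulation reads the first residues of the chain. The first 12 coding bases follow, from GENCODE M21 transcripts, with the start codon included and all letters in capitals as coding sequence.
Tuba1a, Tuba1b and Tuba1c: ATGCGTGAGTGC
Tuba4a: ATGCGCGAGTGC
Tubb2a: ATGCGCGAGATC
Tubb2b: ATGCGAGAGATC
Tubb3 and Tubb4b: ATGAGGGAGATC
Tubb5: ATGAGGGAAATC
All alpha genes shown ended this stretch with TGC and all beta genes shown with ATC.

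RefSeq promoter windows on GRCm38.p6, 250 bases before to 50 after the gene start, were found for 8 of the 10 genes, all but Tubb2b and Tubb6. Those of 4 genes are printed: Tubb2a, on which the choice rests, Tubb5 and the pair Tuba1c and Tubb4b, whose levels went together among libraries. Capitals mark CCAAT or its reverse complement ATTGG, and TATAAA, and the marked matches do not overlap.
Tubb2a, chr13:34077959-34078258, minus strand: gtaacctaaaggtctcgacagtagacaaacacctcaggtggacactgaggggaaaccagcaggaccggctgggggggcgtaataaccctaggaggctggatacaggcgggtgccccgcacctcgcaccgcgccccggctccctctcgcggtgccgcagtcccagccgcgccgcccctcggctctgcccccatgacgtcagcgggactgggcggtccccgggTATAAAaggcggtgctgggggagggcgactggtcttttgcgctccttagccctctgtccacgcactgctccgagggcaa
Tubb5, chr17:35838252-35838551, minus strand: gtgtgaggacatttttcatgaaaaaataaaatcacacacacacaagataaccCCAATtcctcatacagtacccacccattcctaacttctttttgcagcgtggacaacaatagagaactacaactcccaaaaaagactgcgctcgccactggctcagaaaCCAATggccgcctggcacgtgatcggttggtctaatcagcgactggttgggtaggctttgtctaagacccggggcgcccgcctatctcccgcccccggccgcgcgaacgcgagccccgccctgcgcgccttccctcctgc
Tubb4b, chr2:25224653-25224952, minus strand: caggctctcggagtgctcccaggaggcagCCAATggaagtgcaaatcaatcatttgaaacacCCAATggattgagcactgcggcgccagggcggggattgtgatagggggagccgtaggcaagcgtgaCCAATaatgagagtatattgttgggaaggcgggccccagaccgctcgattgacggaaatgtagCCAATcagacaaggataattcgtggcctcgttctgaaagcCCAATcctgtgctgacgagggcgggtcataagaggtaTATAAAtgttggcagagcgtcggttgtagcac
Tuba1c, chr15:99029641-99029940, plus strand: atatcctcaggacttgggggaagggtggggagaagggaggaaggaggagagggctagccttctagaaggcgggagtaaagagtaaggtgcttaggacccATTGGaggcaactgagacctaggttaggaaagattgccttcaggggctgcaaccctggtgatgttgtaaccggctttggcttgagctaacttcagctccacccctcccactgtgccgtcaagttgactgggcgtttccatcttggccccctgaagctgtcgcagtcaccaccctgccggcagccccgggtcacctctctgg
CCAAT on either strand occurred 5 times in the Tubb4b window, 2 times in that of Tubb5, 1 time in that of Tuba1c and not in that of Tubb2a. It was found in 5 of the 8 tubulin windows and in 37.4% of all 32851 windows. TATAAA on either strand was found in 2 of the 8 windows, Tubb2a and Tubb4b, and in 13.6% of all windows. The Tubb2a window also holds TGACGTCA, a motif searched after the sequence was seen, which 1.79% of all windows hold. Of the other motifs searched on both strands, GGGCGG was in 7 of the 8 windows (35.7% of all), TTTGAA in 1 (17.9%), CACGTG in 1, that of Tubb5 (7.15%), and GAANNTTC in none (7.86%). G and C made up 53.7% to 72.7% of the 8 tubulin windows, beside a median of 52.7% over all windows. The part of base content in the motif counts was not tested.

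The bulk libraries held 14.9 to 24.1 M (1 M is 1000000) estimated counts. Levels are given as CPM, estimated counts per M of library size after TMM scaling. Libraries differed in ways the groups do not give. Mitochondrially encoded genes took 13.6% to 16.1% of counts in the shams of 48 and 72 h and in all 72 h UNx libraries. At 24 h they took 23.5% to 26.7% in sham and 21.5% to 24.9% in UNx libraries. In 48 h UNx replicates 1 to 5 they took 25.8% to 26.4%, but 15.2% in replicate 6. A profile score from 271 pseudogenes, with 0 set at the later shams and 1 at the 24 h shams, was 0.640 to 0.717 in those 5 libraries and 0.00628 in replicate 6. At 24 h the score was 0.674 to 0.884 in UNx and 0.958 to 1.04 in sham libraries. The fold changes at 48 h are therefore also given with replicate 6 as the only UNx library. Markers of fat cells summed to 215 CPM in 24 h UNx replicate 4, against at most 3.07 CPM in the other 24 h libraries. The 24 h libraries form labelled batch 1 and the later ones batch 2, so time and batch cannot be told apart between 24 h and the later times.

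Tubb4b and Tuba1b were the main tubulin mRNAs of the sham kidney. Per kb of exon at 72 h, Tubb4b stood at 71.2 CPM ± 4.88 (SD, n = 6) and Tuba1b at 62.7 ± 4.08, with overlapping ranges. Tuba4a (31.3 ± 3.33) and Tuba1c (28.4 ± 1.73) followed and overlapped each other, well below Tuba1b. Tubb2a came next at 18.8 CPM per kb ± 3.87, overlapping Tuba1a (13.9 ± 1.41), which overlapped Tubb5 (13.7 ± 0.992). Tubb2b (5.75 ± 0.948) and Tubb6 (1.62 ± 0.300) each lay wholly below the gene before. Tubb3, known as the neuronal beta-tubulin, was at most 0.262 CPM in any library, with at most 6 estimated counts, and was not tested in bulk.

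**Figure D1:**
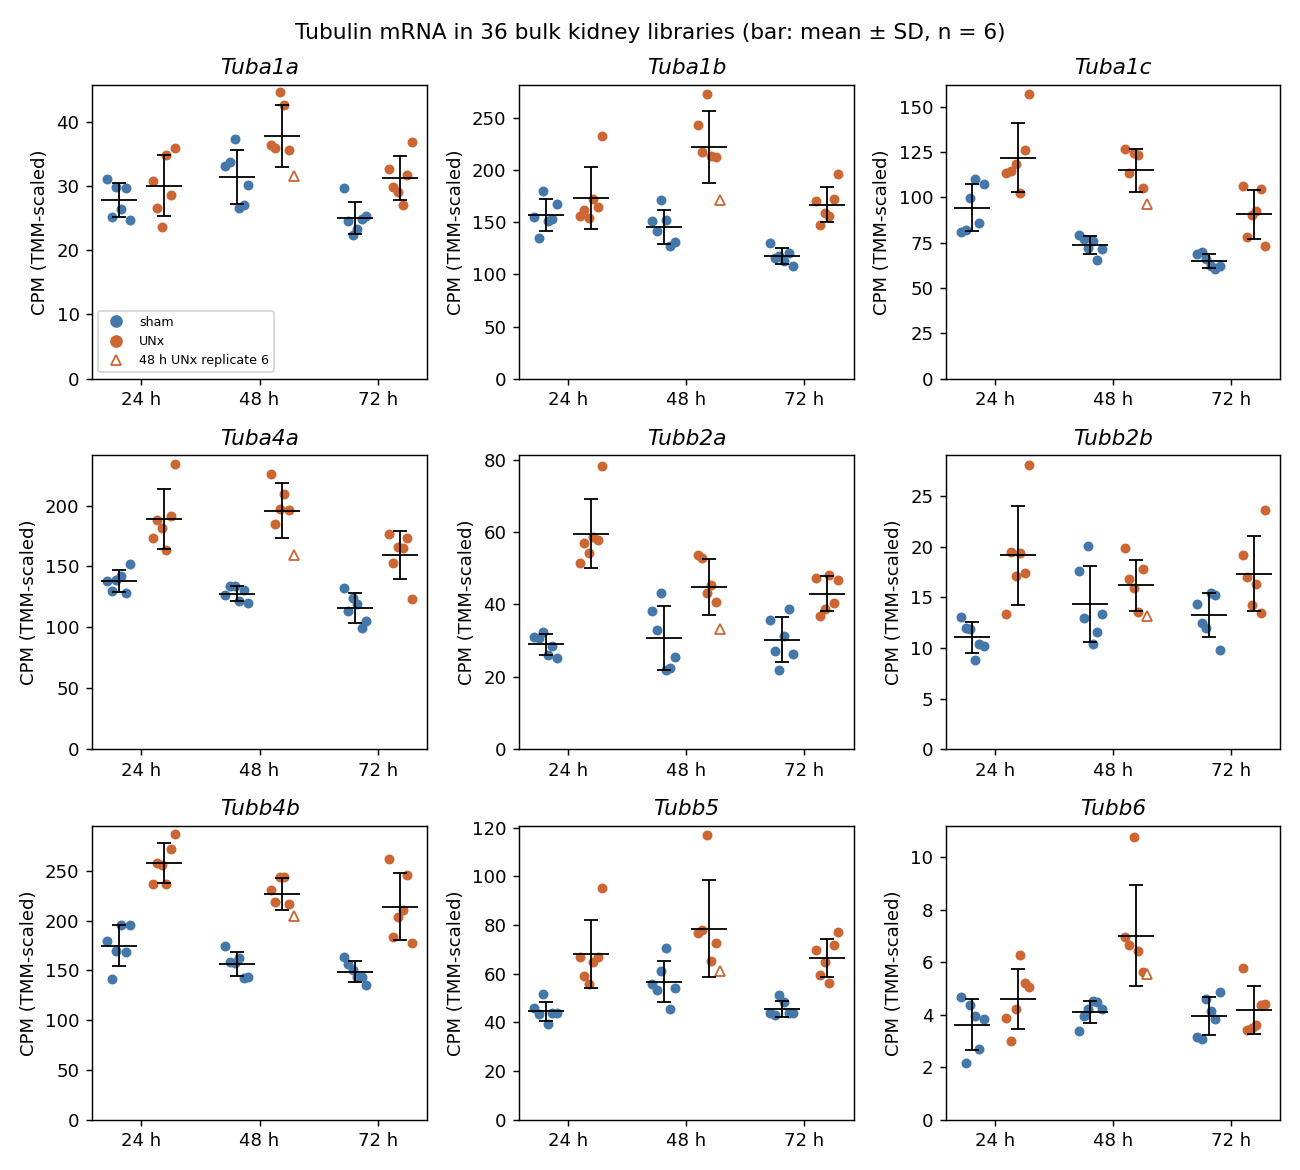
CPM of 9 tubulin genes in the 36 bulk libraries, 1 point per mouse, sham in blue and UNx in orange, with mean ± SD (n = 6). The open triangle is 48 h UNx replicate 6, which is the lowest of its group for all 9 genes. At 24 h the Tubb2a groups are apart, 25.2 to 32.3 against 51.4 to 78.4 CPM.

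The 24 h comparison chose the genes, so its values are a description. Tubb2a, a beta-tubulin also abundant in brain, was at 25.2, 29.6 and 32.3 CPM in shams (lowest, median, highest) and at 51.4, 57.4 and 78.4 CPM in UNx. The groups did not overlap, and UNx replicate 6 was the highest. The log2 fold change was 1.05 (SE 0.0961), or 2.07-fold, and 0.96 without UNx replicate 6. Tubb2b, its neighbour and near copy, went from 8.85, 11.2 and 13.0 CPM to 13.3, 18.4 and 28.0 CPM, a log2 fold change of 0.80 (SE 0.146). Tubb2b too was highest in UNx replicate 6, and its groups were apart by a small margin.

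Among the other beta genes at 24 h, Tubb5 was at 39.5, 43.7 and 51.6 CPM in shams and 55.9, 65.7 and 95.1 CPM in UNx, a log2 fold change of 0.62 (SE 0.108). Tubb4b was at 142, 174 and 195 CPM in shams and 237, 257 and 287 CPM in UNx, a log2 fold change of 0.57 (SE 0.0756). Both genes had separate groups, with UNx replicate 6 the highest library. In the alpha family, Tuba4a was at 128, 138 and 152 CPM in shams and 163, 185 and 234 CPM in UNx, again apart (log2 fold change 0.46, SE 0.0762). Tuba1c (0.38, SE 0.102), Tuba1b (0.15, SE 0.0968) and Tuba1a (0.12, SE 0.0979) had overlapping groups, as had Tubb6 (0.35, SE 0.198). In edgeR 6 of the 9 tested members were past the adjusted threshold of 0.05, all higher, beside 14.2% of all tested genes. In 5 of them every UNx library was above every sham, beside 4.98% of all genes. Since this contrast chose the genes, nothing is read from these counts. With the profile score as a covariate the log2 fold changes were larger, 1.49 for Tubb2b, 1.16 for Tuba1c, 1.00 for Tuba4a and 0.88 for Tuba1b among others. Over all genes that fit called 60 higher and 20 lower, against 2001 and 1851 without it. The score ranges of sham and UNx do not overlap at 24 h, so the part of score and group cannot be told apart. The summed beta level was 263 CPM ± 18.5 in shams and 409 ± 44.3 in UNx (SD, n = 6). Tubb2a made up 11.1% ± 1.58 of it in shams and 14.5% ± 0.852 in UNx, and Tubb4b 66.3% ± 3.89 and 63.2% ± 2.93.

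At 72 h, where mitochondrial share and profile score of the groups overlap, 5 of the 9 tested tubulin genes rose after nephrectomy and none fell. These were Tuba1b, Tuba1c, Tuba4a, Tubb4b and Tubb5, each by 1.37-fold to 1.45-fold. Of all genes tested, 1.21% were called higher and 0.502% lower at this time, 1.71% in all. The median log2 fold change of the 9 genes was 0.47, beside −0.0042 over all genes. The 72 h mice are not those of 24 h, but the genes were chosen with results of these data known.

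Tuba1b, a ubiquitous alpha-tubulin, was at 108, 117 and 130 CPM in 72 h shams and at 148, 165 and 196 CPM in UNx. Its groups were fully apart, with a log2 fold change of 0.50 (SE 0.0709, edgeR adjusted p = 0.00476). Tubb5, a beta-tubulin prominent in dividing cells, was at 43.1, 43.9 and 51.3 CPM in shams and 56.0, 67.2 and 77.4 CPM in UNx. Its groups were apart as well, and the log2 fold change was 0.53 (SE 0.0782, edgeR adjusted p = 0.00541).

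Tubb4b, the main beta-tubulin mRNA of this tissue and a known component of cilia, was at 135, 147 and 163 CPM in 72 h shams and 178, 207 and 262 CPM in UNx. It rose by 0.52 on the log2 scale (SE 0.0889, edgeR adjusted p = 0.0125) with no overlap. Tuba1c was at 60.5, 64.1 and 70.0 CPM in shams and 73.2, 91.2 and 106 CPM in UNx, also apart (log2 fold change 0.47, SE 0.0829, edgeR adjusted p = 0.0133). Tuba4a was at 99.3, 116 and 133 CPM in shams and 123, 166 and 177 CPM in UNx. Its groups overlapped by UNx replicate 6, the lowest of its group, and the log2 fold change was 0.45 (SE 0.0863, edgeR adjusted p = 0.0191). In all, 4 of the members had every UNx library above every sham, a pattern that 1.30% of all genes showed at 72 h. Tuba4a missed the threshold when sham replicate 6 (adjusted p = 0.0531), UNx replicate 1 (0.0504) or UNx replicate 5 (0.0564) was left out. With the profile score as a covariate 2 members, Tuba1b and Tubb5, stayed past the threshold, while Tuba1c (0.38), Tuba4a (0.40) and Tubb4b (0.45) were not called there, at log2 fold changes below those without it and with larger standard errors.

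Tubb2a itself did not pass at 72 h. It was at 22.0, 29.3 and 38.7 CPM in shams and 36.9, 43.5 and 48.1 CPM in UNx, and only sham replicate 5 reached into the UNx range. The log2 fold change was 0.50 (SE 0.126, edgeR adjusted p = 0.0628), about the size of the called genes but with a wider spread among shams. The DESeq2 Wald test gave an adjusted p of 0.00725, limma voom with quality weights 0.0185, and edgeR without sham replicate 5 0.0268. Tubb2b (log2 fold change 0.38, SE 0.146, edgeR adjusted p = 0.195) and Tuba1a (0.31, SE 0.0843, edgeR adjusted p = 0.0805) were also not called. Tubb6 was at 3.08, 3.99 and 4.87 CPM in shams and 3.41, 3.98 and 5.78 CPM in UNx, with a log2 fold change of 0.07 (SE 0.157, edgeR adjusted p = 0.868).

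**Figure D2:**
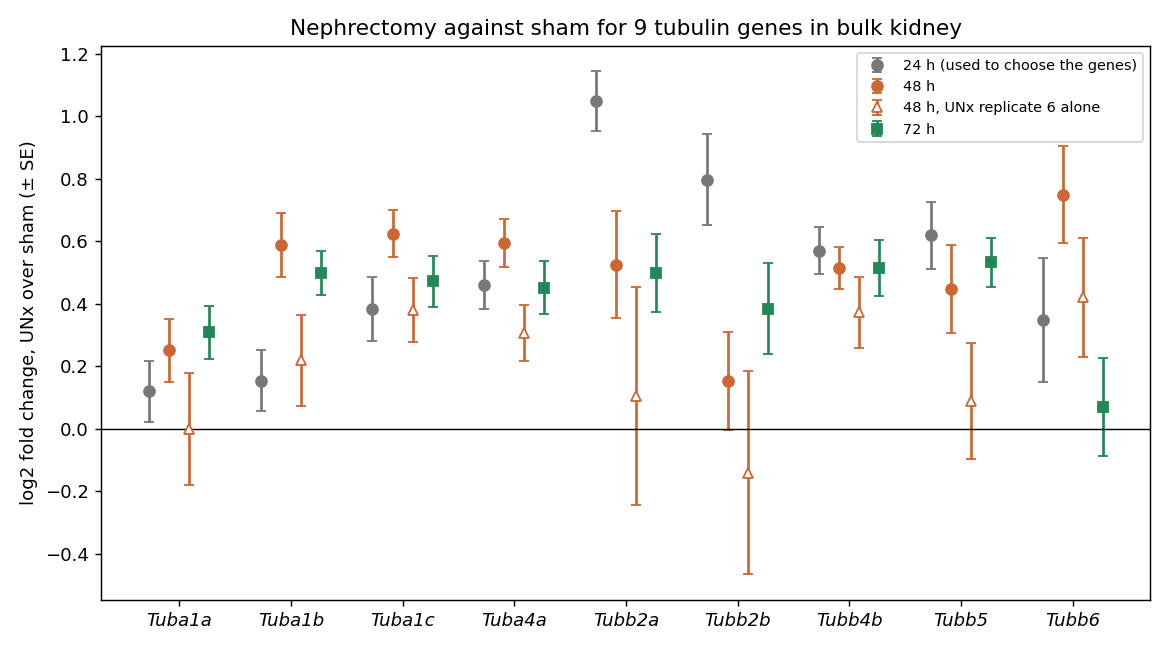
Log2 fold change of UNx over sham (± SE) for 9 tubulin genes at 24 h (grey), 48 h (orange), 48 h with UNx replicate 6 as the only UNx library (open triangles) and 72 h (green). Tubb2a stands at 1.05 at 24 h and at 0.53 and 0.50 later, while Tubb6 stands at 0.75 at 48 h and at 0.07 at 72 h.

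At 48 h, 7 of the 9 tested tubulin genes rose and none fell, beside 16.9% of all tested genes called higher and 16.0% lower. These calls rest on UNx replicates 1 to 5, the libraries with the higher mitochondrial share and profile score. Tuba1c was at 65.6, 74.0 and 79.1 CPM in shams and 96.6, 118 and 127 CPM in UNx, a log2 fold change of 0.62 (SE 0.0749, edgeR adjusted p = 0.000346). Replicate 6 was the lowest UNx library yet above every sham, and alone against the shams it gave 0.38 (adjusted p = 0.220). Such a fit with 1 UNx library assumes that it varies like the shams, and in edgeR it called no gene at all, with 2232 of 15605 genes at an unadjusted p under 0.05.

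Tubb4b was at 142, 158 and 174 CPM in 48 h shams and 204, 225 and 244 CPM in UNx (log2 fold change 0.52, SE 0.0676, edgeR adjusted p = 0.000346). Replicate 6 alone gave 0.37 (adjusted p = 0.234), and at 204 CPM it was again above every sham. Tuba4a was at 120, 129 and 134 CPM in shams and 159, 197 and 226 CPM in UNx (0.60, SE 0.0768, edgeR adjusted p = 0.000346), with 0.31 from replicate 6 alone (adjusted p = 0.225). Tuba1b went from 127, 147 and 171 to 171, 215 and 273 CPM (0.59, SE 0.103, edgeR adjusted p = 0.00118), with 0.22 from replicate 6 alone (adjusted p = 0.517). The groups of these 4 genes and of Tubb6 did not overlap, a pattern shown by 6.69% of all genes at 48 h. Replicate 6 was lowest in each. For Tuba1b it stood at 171.09 CPM, against 171.03 CPM in sham replicate 3, so the Tuba1b groups were barely apart.

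Tubb6, a beta-tubulin of low level here, was at 3.37, 4.20 and 4.52 CPM in 48 h shams and 5.56, 6.54 and 10.8 CPM in UNx. Its log2 fold change was 0.75 (SE 0.155, edgeR adjusted p = 0.00300), and 0.42 with replicate 6 alone (adjusted p = 0.364). Replicate 3 was the highest library by a wide margin for Tubb6 and for Tubb5. Tubb5 was at 45.6, 55.0 and 70.7 CPM in shams and 60.9, 74.7 and 117 CPM in UNx (0.45, SE 0.141, edgeR adjusted p = 0.0262). Its groups overlapped, and it missed the threshold without sham replicate 2 (adjusted p = 0.0515) or sham replicate 5 (0.0582). Replicate 6 alone gave 0.09 for Tubb5 (adjusted p = 0.852).

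Tubb2a at 48 h was at 21.9, 29.2 and 43.1 CPM in shams and 33.3, 44.3 and 53.7 CPM in UNx, a log2 fold change of 0.53 (SE 0.171, edgeR adjusted p = 0.0302). Sham replicates 1 and 3 (38.1 and 43.1 CPM) reached into the UNx range, and the other 4 (21.9 to 32.9 CPM) did not. The call was lost when sham replicate 4, 5 or 6 or UNx replicate 1, 2 or 4 was left out, with adjusted p between 0.0535 and 0.0700. Replicate 6 alone gave 0.11 for Tubb2a (adjusted p = 0.911). Tuba1a (0.25, SE 0.101, edgeR adjusted p = 0.0693) and Tubb2b (0.15, SE 0.158, edgeR adjusted p = 0.471) were not called, and replicate 6 alone gave −0.0012 and −0.14. With the profile score as a covariate no member and no other gene was called at 48 h, while 2093 genes had an unadjusted p under 0.05. Because score and group go together at this time, the part of either in these differences cannot be told apart.

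The change of effect from 48 to 72 h was tested in 1 fit, in which replicates 1 to 5 are among the 6 UNx libraries of 48 h. EdgeR called 0 of the 9 genes, and 14.6% of all genes (5.86% with a higher effect at 72 h, 8.78% with a lower one). At an unadjusted p under 0.05 there was 1 member. It was Tubb6, whose effect was lower at 72 h by a log2 difference of −0.69 (SE 0.253, edgeR adjusted p = 0.0611). It passed when 48 h UNx replicate 6 (−0.75, adjusted p = 0.0297), 72 h sham replicate 2 (−0.75, adjusted p = 0.0497) or 72 h UNx replicate 1 (−0.80, adjusted p = 0.0307) was left out. For Tubb2a the difference was −0.04 (SE 0.204) and for Tubb4b −0.01 (−0.0083, SE 0.116).

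The other genes of the microtubule system were followed in lists. Over 11 lists of related genes, without the 10 members, 192 genes were tested, of which 24 rose and none fell at 72 h. Of these 24, 23 belong to the mitosis list of 26 genes and 1 does not. The latter was Stmn1, a protein that binds free tubulin dimers, which went from 28.1 CPM ± 4.68 to 38.9 ± 4.46 (SD, n = 6; log2 fold change 0.46, SE 0.108, edgeR adjusted p = 0.0487). No gene was called at 72 h among 20 for tubulin folding (median log2 fold change 0.06), 5 for autoregulation (−0.05), 15 for tubulin modification (−0.03), 19 for nucleation (−0.06), 27 motors (0.06), 20 of actin and intermediate filaments (0.10), 12 of heat shock (0.39) and 19 of the primary cilium (−0.10). Of 5 tested other tubulins, such as the gamma-tubulin Tubg1 of the centrosome, none was called (median 0.29). Outside the mitosis list 28 of 166 genes had an unadjusted p under 0.05 as higher and 7 as lower. Of all 14556 tested genes 2515 had such a p, 1293 of them as higher. Among these 166 genes the DESeq2 Wald test called 9 higher and none lower, beside 384 higher and 280 lower of all 14513 genes. Of the 26 mitosis genes it called 25 higher and none lower.

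The mitosis list rose together at 72 h, with a median log2 fold change of 1.25. Kif20a, a kinesin of cytokinesis, went from 3.96 CPM ± 0.580 to 9.94 ± 2.04 (log2 fold change 1.32, SE 0.146, edgeR adjusted p = 0.00259). Mki67, the gene of the Ki-67 protein of dividing cells, went from 13.1 CPM ± 2.46 to 32.0 ± 7.86 (1.29, SE 0.165, edgeR adjusted p = 0.00285). The summed level of the 26 genes was 57.7 to 96.4 CPM in shams and 142 to 259 CPM in UNx. Of 72 tested markers from 18 lists of cell types edgeR called none at 72 h. At an unadjusted p under 0.05, 3 were higher and 15 lower, beside 2515 of all 14556 genes, 1293 of them higher. The 15 included all 5 red blood cell markers and 3 of 5 intercalated cell markers. Red blood cell markers summed to 442 to 1088 CPM in shams and 337 to 535 CPM in UNx, and intercalated cell markers to 178 to 250 CPM and 157 to 196 CPM. Their part in the tubulin values was not tested. The DESeq2 Wald test called 1 marker higher and 2 lower, beside 384 and 280 of all 14513 genes. Principal cell markers summed to 191 to 503 CPM in shams and 199 to 678 CPM in UNx.

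At 48 h, with all 6 UNx libraries, 49 of 193 tested genes of these lists rose and 22 fell, beside 16.9% and 16.0% of all tested genes. With replicate 6 alone edgeR called none of 194, and 26 had an unadjusted p under 0.05. Tubg1 rose (log2 fold change 0.72, SE 0.141, edgeR adjusted p = 0.00229), the only call among 6 tested other tubulins, and had −0.05 with replicate 6 alone, the opposite sign. Of 20 folding genes 4 rose and 2 fell, among them the prefoldin subunits Pfdn5 (0.39, adjusted p = 0.00200) and Vbp1 (−0.58, adjusted p = 0.0196), which went opposite ways. With replicate 6 alone they had 0.18 and 0.22, so the sign of Vbp1 reversed. Ttc5, the factor that recognises nascent tubulin, fell by 0.46 on the log2 scale (SE 0.0939, edgeR adjusted p = 0.00283), and Cnot11, a subunit of the CCR4-NOT deadenylase, rose by 0.29 (adjusted p = 0.00840). Replicate 6 alone gave −0.17 for Ttc5 and 0.015 for Cnot11. The mitosis list had 15 of 26 genes higher and none lower (median 0.88, and 0.58 with replicate 6 alone), and the ciliary list 2 higher and 7 lower of 19 (median −0.12, and −0.056 with replicate 6 alone). Of 69 tested cell type markers 8 rose and 10 fell at 48 h. With replicate 6 alone none of 77 was called in edgeR, and 9 had an unadjusted p under 0.05. Their part in the tubulin values was not tested.

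At 24 h, described only, 46 of 187 tested genes of the lists were past the threshold as higher and 23 as lower, beside 14.2% and 13.1% of all tested genes. Mitosis genes were higher in 15 of 22 (median log2 fold change 0.85), heat shock genes in 7 of 12 (0.45) and actin and intermediate filament genes in 8 of 20 (0.22), with no gene lower in any of these lists. Pfdn5 had a log2 fold change of −0.91 and Ttc5 one of 0.26 at this time, each opposite in sign to 48 h. The summed mitosis level was 23.5 to 46.1 CPM in shams and 40.8 to 92.7 CPM in UNx, with UNx replicate 6 highest.

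Members were also compared by how they went up and down with other genes among mice of 1 group. To show this, each gene's log2 CPM was taken as the deviation from its group mean over 36 libraries, values that share library scaling and are described without a p. Tuba1c and Tubb4b deviated together (Pearson r = 0.85, Spearman rho = 0.86, r = 0.84 without the 2 libraries farthest from the median, 0.76 in batch 1 and 0.92 in batch 2). Tubb2a and Tubb2b did so as well (r = 0.78, rho = 0.77, 0.71 without the 2 farthest, 0.91 and 0.76 by batch), and so did Tuba1b and Tubb5 (r = 0.80, rho = 0.72, 0.69 without the 2 farthest, 0.86 and 0.77 by batch). Between genes of different pairs among these, r ranged from 0.02 for Tuba1c and Tubb2b to 0.59 for Tuba1b and Tubb2b. Tubb2a and Tubb5 had 0.24 over all libraries but 0.83 in batch 1. The pairs were not exclusive. Tuba4a went with Tuba1c (r = 0.78, rho = 0.73, 0.69 without the 2 farthest, 0.87 and 0.74 by batch). Over the 18 shams and the 18 UNx libraries r was 0.48 and 0.91 for Tuba4a and Tuba1c, and 0.55 and 0.90 for Tuba1b and Tubb5. It was 0.75 and 0.91 for Tuba1c and Tubb4b, and 0.85 and 0.72 for Tubb2a and Tubb2b. These differences between shams and UNx were not tested. Tuba4a and Tubb4b had r = 0.69, and Tuba1a and Tuba1b had r = 0.67. Shared reads within the pairs of near copies were not tested as a source.

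Tubb5 went with the mitosis genes. Its deviations and those of the summed mitosis list had r = 0.77, rho = 0.66, 0.68 without the 2 farthest libraries, 0.70 in batch 1, 0.80 in batch 2, 0.73 over the 18 shams and 0.83 over the 18 UNx libraries. The library with most mitosis mRNA was also the one with most Tubb5 in 24 h shams, 24 h UNx, 48 h shams, 48 h UNx and 72 h UNx, but not in 72 h shams. In 48 h shams, for example, replicate 4 had 199 CPM of mitosis genes, against 72.6 to 111 CPM in the others, and 70.7 CPM of Tubb5, against 45.6 to 61.0 CPM. Tuba1b had r = 0.54 with the mitosis sum (0.15 over shams and 0.80 over UNx libraries). Tubb6 had 0.39 (0.14 over shams and 0.61 over UNx libraries), Tubb4b 0.06 and Tuba4a −0.03. Tubb2a had 0.13 over all libraries, 0.93 in batch 1 and −0.08 in batch 2, and Tubb2b had 0.80 in batch 1 and −0.08 in batch 2. The 6 genes most like Tubb5 among 9214 protein-coding genes were Mcm5 (r = 0.81), Ncapd2 (0.76), Mki67 (0.75), Rrm2 (0.74), Mdc1 (0.72) and Praf2 (0.72), where 1% of all genes exceeded 0.56.

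Tubb2a went with markers of the principal cells of the collecting duct and with actin and intermediate filament genes. Among other marker lists, it had r = 0.49 with endothelial, 0.49 with adrenal and 0.41 with thin limb markers. It had r = −0.18 with intercalated cell, −0.49 with connecting tubule and −0.50 with red blood cell markers. Its deviations and those of the summed principal cell markers (Aqp2, Aqp3, Avpr2 and Scnn1b) had r = 0.66, rho = 0.61, 0.70 without the 2 farthest libraries, 0.87 in batch 1 and 0.63 in batch 2. The tie was closer over the 18 shams (r = 0.86) than over the 18 UNx libraries (r = 0.40), a difference that was not tested. The 48 h shams with most Tubb2a, replicates 1 and 3, had 515 and 553 CPM of these markers, against 205 to 308 CPM in the other 4. In 24 h UNx replicate 6 the markers stood at 367 CPM, against 222 to 268 CPM in the other 5, and Tubb2a at 78.4 CPM. Tubb2b had r = 0.60 with the same marker sum (0.81 in batch 1 and 0.57 in batch 2). The part of these markers in the Tubb2a values was not tested. With the summed actin and intermediate filament list Tubb2a had r = 0.81 (rho = 0.78, 0.77 without the 2 farthest libraries, 0.73 in batch 1 and 0.87 in batch 2). The other members had lower values with that list, among them Tuba1b (0.78), Tuba1a (0.69), Tubb2b (0.65) and Tubb5 (0.54). The 6 genes most like Tubb2a were Mid1ip1 (r = 0.83), Scd2 (0.81), Actb (0.76), Bsnd (0.75), Krt7 (0.74) and Slc2a1 (0.74), where 1% of all genes exceeded 0.63.

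**Figure D3:**
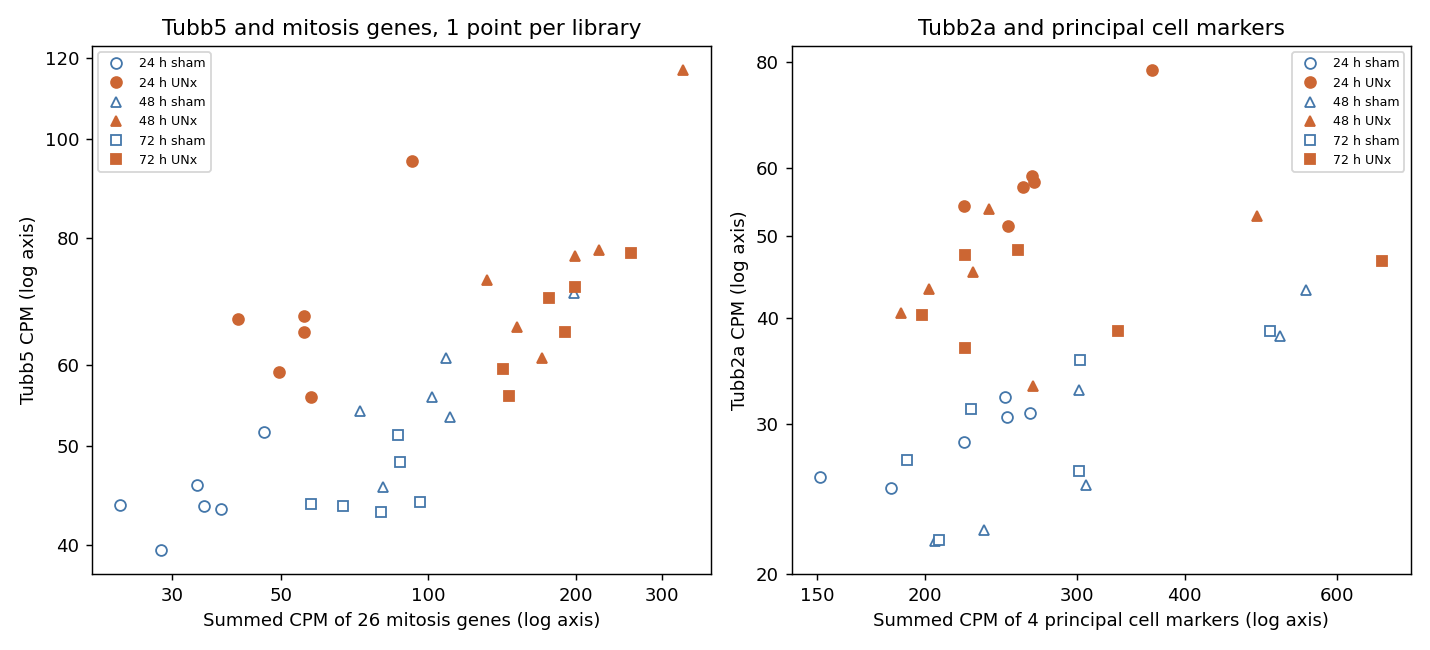
Left, Tubb5 against the summed CPM of 26 mitosis genes, and right, Tubb2a against the summed CPM of 4 principal cell markers, 1 point per bulk library on log axes, with symbols by time and group. Libraries with more mitosis mRNA have more Tubb5 within most groups, and the 48 h shams with 515 and 553 CPM of principal cell markers have the most Tubb2a of their group.

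The nuclei give tubulin levels by class. Free RNA in the droplets was not measured here, so low class levels cannot be told apart from background. The table covers 16500 nuclei, with 2641 to 5342 per mouse and medians of 7581 to 9909 estimated UMI (unique molecules) per nucleus. The authors' annotation names 30 classes, of which 23 had at least 10 nuclei in every mouse. Replicate 1 of each group is labelled batch 3 and replicate 2 batch 4, and libraries shared 1 to 7 cell barcodes per pair. Checked against fixed markers, 3 of 3 thick ascending limb markers stood over 2 times above the median of other classes in MTAL, CTAL1 and CTAL2, and 4 of 4 principal cell markers in CPC and MPC. Endothelial markers did so 5 of 5 in EC1 and EC2, and distal convoluted and connecting tubule markers 3 of 3 in DCT and CNT. Proximal tubule markers did so 5 of 7 in PTS1 and PTS2 and 3 of 7 in PTS3, and thin limb markers 1 of 5 in DTL1.

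Tubb2a was highest in the medullary principal cell class MPC, at 31.3 and 24.3 CPM in the sham mice and 37.0 and 22.4 CPM in the UNx mice (batch 3, then batch 4). Its lowest mouse was above every mouse of 12 other classes. DCT, and not the other principal cell class CPC, followed at 19.7 to 23.1 CPM. The 3 proximal tubule classes, the largest of all, were lowest with means of 5.47 to 6.11 CPM. In PTS1 Tubb2a was at 2.01 CPM in sham and 2.47 CPM in UNx of batch 3 and at 10.5 and 9.50 CPM in batch 4, so the batches differed more than the groups. Tubb2b was also highest in MPC (mean 13.8 CPM ± 6.38, n = 4) and low in the proximal classes (1.90 to 2.17 CPM).

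Tuba1c was high in several classes of the distal nephron, though not in all. It averaged 72.7 CPM ± 17.0 in CTAL1, 66.1 ± 15.9 in DCT, 65.5 ± 16.0 in CNT and 61.7 ± 12.2 in CTAL2 (SD, n = 4 mice), with every mouse above every mouse of 15 or 16 other classes. The macula densa class MD had a higher mean, 94.3 CPM ± 26.4, from 50 nuclei. In MTAL, the medullary thick limb, Tuba1c was lower than these means, at 24.9 to 54.1 CPM. PTS1, PTS2 and PTS3 were at 18.0 to 24.2 CPM. Tubb5 was highest in the endothelial class EC2, at 13.3 to 22.4 CPM, wholly above 16 other classes. Tubb6 in fibroblasts (Fib, 4.47 to 12.6 CPM) lay wholly above 16 classes.

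Tubb4b differed less between classes. Tubb4b averaged 29.0 to 57.9 CPM in all tested classes but MD (11.7 CPM), with the urothelial class Uro highest at 50.2 to 70.0 CPM. For Tuba4a and Tuba1b no class lay wholly above any other. Tuba1a averaged 19.4 CPM ± 3.47 in EC1, wholly above 14 classes. Tubb3 gave 48.4 UMI in all, of which 15.0 were in MPC, and 0 in 5 classes. For all 10 genes, each class overlapped the next in the order of means, so only steps across several classes exceed the spread between mice.

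**Figure D4:**
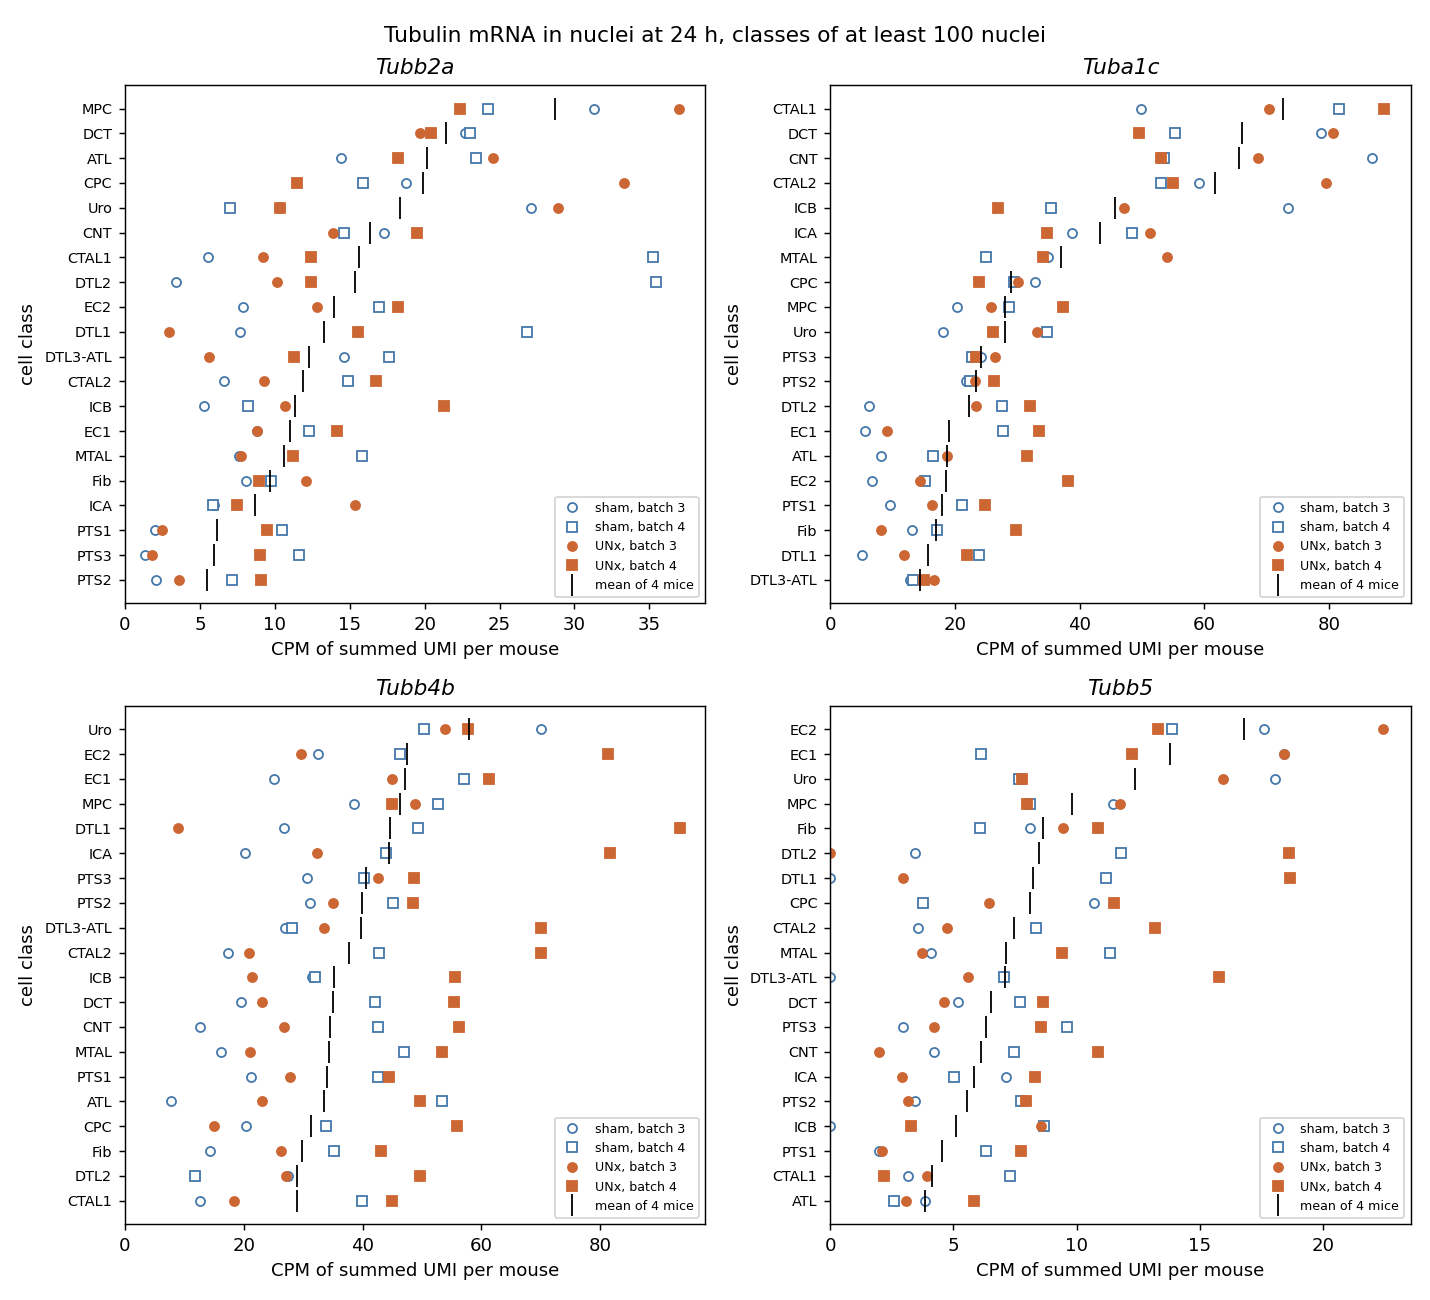
CPM of summed UMI for Tubb2a, Tuba1c, Tubb4b and Tubb5 in the 20 tested classes with at least 100 nuclei, 1 point per mouse, circles for batch 3 and squares for batch 4, with the mean of 4 mice as a bar. MPC leads for Tubb2a and CTAL1 for Tuba1c, and squares lie right of circles for Tubb4b in most classes.

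Nephrectomy against sham in nuclei at 24 h used other mice than the bulk. Over all nuclei, 0 of 10 tubulin genes were called in edgeR, with none at an unadjusted p under 0.05 and none called by the DESeq2 Wald test. Of all 19975 tested genes 0.00% were called. Tubb4b was at 24.3 CPM in sham and 31.3 CPM in UNx of batch 3, and at 43.8 and 53.0 CPM in batch 4. Within batches UNx was 1.29 and 1.21 times sham, a smaller step than that between batches. Its log2 fold change was 0.39 (SE 0.497), and 0.39 (SE 0.0890) with the batch pairs as a block.

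Tuba4a (16.5 and 20.4 CPM in batch 3, 43.5 and 51.6 CPM in batch 4), Tuba1b (6.47 and 8.12, then 20.0 and 25.0 CPM) and Tuba1c (26.9 and 32.3, then 30.1 and 32.7 CPM) were likewise higher in UNx in both batches. With the block these 4 genes had unadjusted p-values of 0.00424 to 0.0286 and edgeR adjusted p-values of 0.116 to 0.257. The block called 1.04% of all genes and gave 7.28% an unadjusted p under 0.05 as higher. Tubb2a went from 6.61 to 7.80 CPM in batch 3 and from 13.8 to 12.3 CPM in batch 4, in opposite directions. Its log2 fold change was 0.05 (SE 0.546), or 0.10 (SE 0.150) with the block, beside 1.05 in bulk. This difference between the assays, which use nuclear and whole-tissue RNA of different mice, was not tested.

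**Figure D5:**
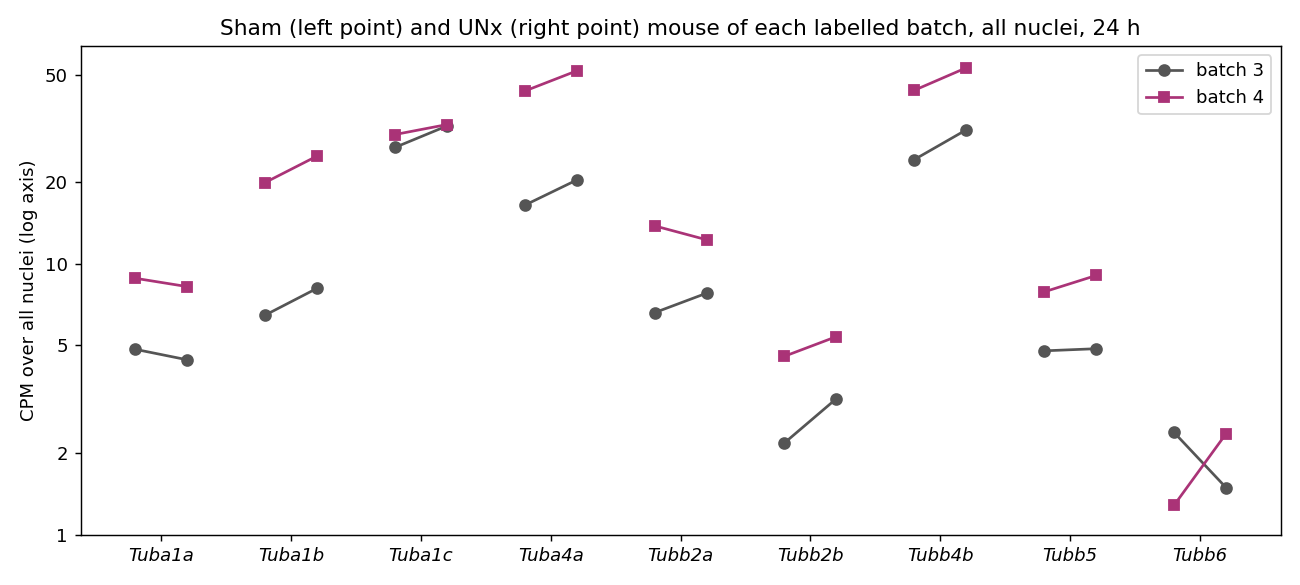
CPM over all nuclei (log axis) for 9 tubulin genes, each line joining the sham and the UNx mouse of 1 labelled batch. Tuba1b, Tuba1c, Tuba4a, Tubb2b, Tubb4b and Tubb5 are higher in UNx in both batches, Tuba1a is lower in both, and Tubb2a and Tubb6 go opposite ways.

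By class, 120 pairs of tubulin gene and class could be tested and 0 were called in edgeR, none with an unadjusted p under 0.05 and none called by the DESeq2 Wald test. Over all genes and classes 0.00% of pairs were called and 0.325% were higher at an unadjusted p under 0.05. Log2 fold changes were above 0 in 99 of the 120 pairs (82.5%), beside 49.3% of all tested pairs of gene and class, from the same 4 mice. With the batch block again 0 pairs were called, at a lowest adjusted p of 0.253, and 11 had an unadjusted p under 0.05. All 11 were higher in UNx, 9.17% of the pairs beside 3.92% of all tested pairs. They lay in Tuba1c (MTAL, EC2, PTS1), Tuba4a (MTAL, CTAL1, CTAL2, EC1), Tuba1b (PTS3, MTAL) and Tubb4b (CNT, PTS3).

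In the fit without the block, by which the pairs below are ranked, the pair with the lowest p was Tuba1c in MTAL, the medullary thick limb. It was at 34.9 CPM in sham and 54.1 CPM in UNx of batch 3, and at 24.9 and 34.2 CPM in batch 4. Both mice with nephrectomy were above the sham of their batch, though the groups overlapped (log2 fold change 0.61, SE 0.344, edgeR adjusted p = 1.00, and 0.62, SE 0.188, adjusted p = 0.439 with the block). Next came Tubb4b in DTL3-ATL (0.96, SE 0.570) and Tuba1c in ATL (1.15, SE 0.690), thin limb classes with 69.0 and 44.5 UMI in all. With the block their unadjusted edgeR p-values were 0.0864 and 0.0675. The lowest p-values for lower values were Tuba1b in Uro (−0.80, SE 0.472), Tubb2a in CTAL1 (−0.89, SE 0.941) and Tuba1b in DTL3-ATL (−0.58, SE 0.681), all with an edgeR adjusted p of 1.00. Tubb2a in CTAL1 rested on the batch 4 sham, at 35.3 CPM against 5.52 to 12.4 CPM in the other 3 mice. In MPC, where Tubb2a was highest, it was 1.18 times sham in batch 3 and 0.92 times in batch 4. Tuba4a and Tubb4b were each higher in UNx in both batches in 12 classes and lower in both in none, of 17 and 18 classes with over 3 UMI in each mouse.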

How the data were processed

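Bulk RNA-seq (36 libraries) and single-nucleus RNA-seq (4 mice) were analysed from deposited tables. The authors deposited estimated counts per gene for bulk, not normalized; Salmon 1.5.0, FastQC 0.11.8, R 4.10 and the build GRCm39 are listed in the submitters' processing notes. For nuclei they deposited estimated UMI counts and a class for each nucleus, with alevin, Seurat and mm10 named in the same notes; no doublet caller was run here, and the sources do not say how doublets were treated. Of the bulk values 34.1% are not whole. Counts were rounded, for nuclei after summing per mouse and class.

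Groups, times, batches and replicate numbers come from the labels, which give each sample its own mouse number. Replicate pairs all differed beyond sampling noise. edgeR 4.0.16 (R 4.3.3; filterByExpr, TMM, quasi-likelihood, two-sided) was fitted to all genes of each time point or class, with Benjamini-Hochberg adjustment over them and a threshold of 0.05. Standard errors are the log2 fold change over the square root of F. DESeq2 1.42.0 size factors and Wald test, limma 3.58.1 voom, no filter, no mitochondrial genes, a profile score covariate, all libraries in 1 fit, a replicate block and leaving out each library were alternatives. Nuclei with the same number share a labelled batch and deviated together (r = 0.81), so they count as paired; bulk numbers do not pair mice. The fits were tested on simulated data. Symbols, coordinates and exon lengths come from GENCODE M21 (GRCm38), which named 28340 bulk genes. Tuba3b, Cyp11b1, Cyp11b2 and Snap25 of the lists were not analysed here in bulk.

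Members, gene lists and markers were chosen with earlier results of these data known. The text names all members, from each list those of the 2 called genes per direction with the lowest p that a result turns on, the 3 pairs of gene and class per direction with the lowest p, and the 6 protein-coding genes of mean log2 CPM of at least 3 most correlated with Tubb2a and with Tubb5.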

Additional observations from a re-analysis of the deposited data

Results flagged for a closer look

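Of 54 sets of 6 libraries (9 genes, 6 groups), 5 held a library far from the others of its group, where chance flags about 1 in 20. In 24 h UNx replicate 6, Tuba1b was at 233 CPM against 155 to 172 CPM in the other 5 libraries, Tubb2a at 78.4 CPM against 51.4 to 58.7 CPM, and Tubb5 at 95.1 CPM against 55.9 to 67.0 CPM. The same library had the highest mitosis sum (92.7 CPM) and principal cell sum (367 CPM) of its group, and a profile score of 0.884 against 0.674 to 0.706. In 48 h UNx replicate 3, Tubb5 was at 117 CPM against 60.9 to 77.8 CPM and Tubb6 at 10.8 CPM against 5.56 to 6.96 CPM. That library had the highest mitosis sum of all (331 CPM). The part of these sums in the tubulin values was not tested.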

How the results depend on the processing

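The 7 calls among tubulin genes at 48 h became 0 with the profile score covariate and 0 with UNx replicate 6 alone, and stayed between 5 and 8 when 1 library was left out. The 5 calls at 72 h became 2 with the profile score covariate, where Tuba1c, Tuba4a and Tubb4b had log2 fold changes of 0.38, 0.40 and 0.45, and lay between 4 and 6 with 1 library left out. The change of effect between 48 and 72 h had 0 to 1 calls with 1 library left out. At 24 h the Tubb2a log2 fold change became 1.54 with the profile score covariate and lay between 0.96 and 1.09 with 1 library left out. The scores of sham and UNx do not overlap at 24 h, so in the value of 1.54 score and group cannot be told apart. Signs reversed at 48 h for Tuba1a (−0.029 with the covariate, −0.0012 with UNx replicate 6 alone) and Tubb2b (−0.20 and −0.14), and at 72 h for Tubb6 (−0.0074 with voom, −0.044 to 0.14 with 1 library left out, lowest without UNx replicate 1), none of them called. The cause was not tested.

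With a replicate block 7 tubulin genes were called at 48 h and 5 at 72 h, 0 in the change of effect and 0 in nuclei, all as without it, and the 24 h log2 fold change of Tubb2a was 1.04. Over all genes the block gave 96 higher and 24 lower calls at 72 h, against 176 and 73 without it. Bulk replicate numbers do not pair mice (correlations of same-numbered libraries −0.29 to 0.13). No nucleus setting gave a call among the members. With 2 mice per group only large and uniform changes can pass in nuclei, and rare classes rest on few UMI.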
